A study of Mus musculus with 10 samples.

Results

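Control C2C12 cells were compared before and after 6 days of muscle differentiation, gene by gene. C2C12 is an immortalized mouse myoblast line whose cells divide in rich medium and, once confluent and kept in low serum, leave the cell cycle and fuse into multinucleated myotubes. The genes compared are those with at least 1 FPKM (fragments per kilobase of transcript, scaled to sequencing depth) in the control column of the day 0 table or of the day 6 table, which are 11653 of the 23417 genes listed. Of these, 36 had a row that the authors' software marked as failed or too deep or too shallow in either table, among them Xirp2, and were given no ratio, which left 11617 genes. The genes nearest the limit were Ddo (1.00 FPKM at day 6) and Amy1 (1.00) just inside, and Gm16845 (0.998 at day 6) and Ifi27l2a (0.998 at day 0) just outside.

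The whole study, 10 libraries in 4 tables, set knockdown of the ubiquitin ligase Huwe1 and overexpression of the deubiquitinase USP10 against control C2C12 cells. The day 0 control is wildtype C2C12 in growth medium, kept below confluence in DMEM with fetal bovine serum, and the day 6 control is wildtype C2C12 after 6 days in differentiation medium with horse serum, begun at confluence. Medium, cell density and time therefore changed together, and their parts cannot be told apart. A second day 6 control stands in the table of the USP10 experiment, whose header names the same wildtype library as the day 6 Huwe1 table although its levels differ, so which culture it came from is not known. A day 8 control, C2C12 carrying a non-targeting RNA after 8 days in differentiation medium, stands in the myotube table. Per the study's methods, myotubes of that experiment were given lentivirus from day 4 and then puromycin to remove uninfected cells. Infection, drug selection and the later day therefore cannot be told apart in that column. These later columns are given beside the main values and were used for no call. Each column is 1 library of 1 cell line, so no difference below has a replicate check, and none has a p-value.

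Skeletal muscle differentiation is driven by the myogenic basic helix-loop-helix factors. Myf5 and MyoD mark dividing myoblasts, and myogenin and MRF4 act in cells that have left the cycle, together with the MEF2 factors, at promoters of genes for the contractile apparatus. Myotubes assemble sarcomeres from thick (myosin) and thin (actin) filaments anchored at the M-band and Z-disc, and form triads that release calcium. Dividing myoblasts carry the transcripts of replication and mitosis, and genes of mitosis are commonly read from promoters with CCAAT boxes and a CHR element, the binding sites of NF-Y and of the complexes that silence them in resting cells.

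Ratios are given as log2 of the day 6 to the day 0 FPKM with 0.01 added to each, centred on the median of the 9782 genes that reached 1 FPKM on both days. That median was -0.07 before centring. A gene is said to have risen or fallen when its centred ratio was at least 2-fold. By this rule 2630 genes (22.6%) rose, 2526 genes (21.7%) fell, and 5156 (44.4%) did either, while 4276 (36.8%) stayed within 1.5-fold. The list counts below are to be read beside these shares, 22.6% risen and 21.7% fallen. At 8-fold, 865 genes (7.45%) rose and 709 (6.1%) fell, 1574 in all (13.5%). The median ratio over all 11617 genes was 0.02. A total of 829 genes passed the 1 FPKM limit at day 0 alone and 1006 at day 6 alone, and 226 genes are listed at 0 at day 0 against 50 at day 6. A gene under 1 FPKM on 1 day was compared only if it reached 1 on the other, so its direction was nearly fixed. The same limit applies to members of every list below. Of 426 genes under 0.1 FPKM at day 0, all 426 rose, and of 580 from 0.1 to 1, 520 did. Centring on a housekeeping list in place of the median gene raised every ratio by 0.68 and gave 4683 genes higher and 1498 lower (75.8% of calls higher, against 51.0%), since that list itself had a median of -0.68. On that scale a day 6 ratio or median printed between -0.68 and 0 lies above 0.

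Depth was estimated from the FPKM that 1 fragment is worth in each column, at 23900000 fragments for day 0, 32800000 for day 6, 8540000 for the second day 6 control and 19700000 for day 8. On a transcript of 2000 bases, 1 fragment is then worth 0.0233 FPKM at day 0 and 0.0169 at day 6, so levels under about 0.1 FPKM rest on a handful of fragments. For these, and for genes listed at 0, levels are given without a ratio. Between the 2 day 6 controls, 13.9% of 10334 genes that reached 1 FPKM in each differed at least 2-fold after centring (robust SD 0.56 on the log2 scale), against 35.2% of 9782 genes between day 6 and day 0 (robust SD 1.02).

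**Figure D1:**
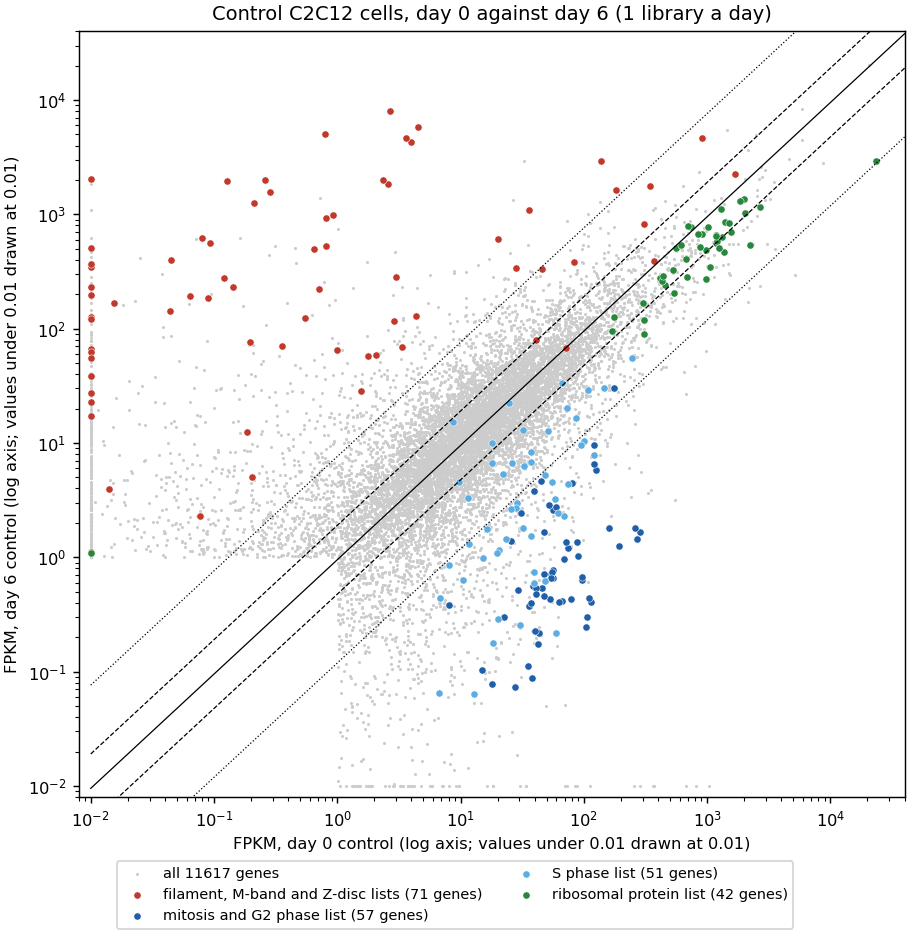
FPKM of 11617 genes in the day 0 control (x axis, log scale) and the day 6 control (y axis, log scale), 1 library each, with the median ratio as a solid line and 2-fold and 8-fold limits as dashed and dotted lines. The filament, M-band and Z-disc genes lie above the upper dotted line with few exceptions, while mitosis genes lie below the lower one apart from Smc4.

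The RNA of both days held markers of a muscle line. All 10 genes of a skeletal muscle marker list rose, beside 22.6% over all genes. Their summed level went from 378 FPKM at day 0 to 18747 at day 6. Among them Ckm, Myh3, Myog, Ryr1 and Tnnt3 were under 1 FPKM at day 0. These entered only through day 6, so their rise was nearly fixed. At day 0 the cells already had the intermediate filament gene Des (345 FPKM), Tnnt2 (183) and Myod1 (21.7). Of 7 measured cardiac markers, Actc1, Tnnt2, Tnni3 and Myh6 rose, of which Actc1 and Tnnt2 are also expressed in embryonic skeletal muscle, and Nppb, Gata4 and Nkx2-5 fell, though Nkx2-5 turned to a ratio of 0.80 with the second day 6 control. Several defining markers of other cell types were at 0: Adipoq, Plin1, Cfd and Lep for adipocytes, Emr1, Tyrobp and Fcer1g for macrophages, and Cd3e for lymphocytes are listed at 0 on both days. Summed over 10 macrophage and leukocyte markers, levels were 4.46 FPKM at day 0 and 2.53 at day 6. Over 10 adipocyte markers they were 11.6 and 8.86, over 10 osteoblast and chondrocyte markers 49.0 and 22.5, and over 8 endothelial markers 13.6 and 0.284, nearly all of the last from Cdh5 at day 0. Other markers of these lists were not at 0, with Sox9 at 35.1 FPKM at day 0 and 7.51 at day 6, Runx2 at 13.8 and 6.95 and Pparg at 10.6 and 6.24. Summed neural markers were at 78.1 FPKM at day 0 and 1.38 at day 6, with 16.04 in the second day 6 control and 28.0 at day 8. Tubb3, Map2 and Stmn2 fell at day 6, but Map2 was at 6.84 and 6.74 FPKM at day 0 and in the second day 6 control, and Stmn2 at 8.88 FPKM at day 0 and 19.9 at day 8. These are bulk cultures, in which fewer cells of a kind and less RNA per cell cannot be told apart. That holds for every fall and rise below.

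Of the 4 myogenic factors, 3 rose and Myf5 fell. Myod1 stood at 21.7 FPKM at day 0 and 155 at day 6, with 83.5 in the second day 6 control and 127 at day 8 (log2 ratio 2.90). Myog, the gene of myogenin, stood at 0.164 FPKM at day 0, about 5.1 fragments, and at 619, 305 and 391.8 in the later columns (log2 ratio 11.87), so that the day 0 column was far below every other. Myf5 had 12.5 FPKM at day 0 and 3.51 at day 6, with 4.79 and 7.36 in the second day 6 and day 8 controls, all 3 below day 0. Myf6, which encodes MRF4, was the lowest of the family at day 6, at 2.51 FPKM against 0.200 at day 0.

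The promoter of Myog is shown because its E-boxes (CANNTG) are the kind of site that myogenic factors bind. The 150 bases before its start lie at chr1:134289854-134290003 on the plus strand of GRCm38 (RefSeq), with the 2 E-boxes in capitals.
Myog: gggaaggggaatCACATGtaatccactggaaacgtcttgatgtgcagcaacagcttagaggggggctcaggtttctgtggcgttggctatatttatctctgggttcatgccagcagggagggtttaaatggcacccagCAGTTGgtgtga
An E-box of any kind is common. In the 250 bases before the start, 55.3% of the 6843 compared genes with 1 listed start held one on either strand, against 61.6% of 1436 genes that rose. Among all 22862 promoters with 1 start, compared or not, the share was higher than in either, at 66.3%. The form CAGCTG was less common, at 11.8% of compared genes and 12.7% of all 22862 promoters with 1 start. It stood in 16.3% of genes that rose, 23.1% of the 437 that rose at least 8-fold, 12.1% of those that fell, and 15 of 45 genes of the filament and Z-disc lists (33.3%). A MEF2 word stood in 0.482% of compared promoters and 2.97% of those that rose at least 8-fold. A TATAAA between 40 and 16 bases before the start stood in 1.32% of compared genes and 2.42% of all 22862 promoters. It stood in 4.81% of genes that rose at least 8-fold and 5 of the 45 contractile genes. These shares describe the letters in these windows, not bound sites.

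Among MEF2 and other muscle transcription factors, 11 of 23 measured genes rose and 3 fell (median log2 ratio 1.00, against 0.02 over all genes). Mef2c rose from 2.59 FPKM at day 0 to 97.7 at day 6, with 49.95 and 48.6 in the second day 6 and day 8 controls (log2 ratio 5.30). Mef2a rose from 22.8 to 224 FPKM (83.3 and 129 in the other columns) and passed Mef2d, which went from 29.8 to 56.8 (45.4 and 98.1 there). Mef2a thus lay below Mef2d at day 0 and above it in every later column. Mef2c lay above Mef2d at day 6, little above it in the second day 6 control and below it at day 8. Csrp3, which encodes the muscle LIM protein, and Rbm24, an RNA-binding regulator of muscle splicing, are listed at 0 at day 0 and stood at 369 and 130 FPKM at day 6. Smyd1, a muscle methyltransferase, rose from 0.652 to 52.9 FPKM, Tead4 from 4.15 to 42.6 and the chromatin-associated cofactor gene Eya4 from 2.54 to 43.3. Vgll2, a TEAD cofactor, fell from 43.6 to 0.627 FPKM, Mbnl3 from 6.84 to 0.377 and Tead2 from 29.3 to 6.13. Tead1 and Srf, which regulate muscle and growth genes alike, stayed near their day 0 levels (log2 ratios 0.31 and -0.32, the latter 0.36 on the housekeeping scale).

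The genes that restrain myogenic factors did not move as a group. Of 17 HLH repressors and their E protein partners, 6 rose and 4 fell (median 0.05, which was -0.02 without centring), beside 22.6% and 21.7% over all genes. The Id genes, whose proteins sequester E proteins, changed little: Id1 was at 17.6 and 17.3 FPKM, Id2 at 8.81 and 10.6, and Id3 at 33.2 and 24.9. The repressors Twist2 and Msc fell, Twist2 from 20.5 to 0.0275 FPKM and Msc, also called MyoR, from 3.57 to 0.0603. Twist2 stayed low in the second day 6 control (1.90) and at day 8 (0.869), but Msc stood at 2.58 FPKM at day 8, near its day 0 level. Hes6 rose from 10.8 to 41.3 FPKM, and the circadian repressor gene Bhlhe41 from 2.87 to 21.3.

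Of 18 satellite and reserve cell genes, 10 rose and 6 fell, beside 22.6% and 21.7% over all genes. Pax7, the factor of muscle stem cells, is listed at 0 at day 0 and stood at 7.54 FPKM at day 6, 8.27 in the second day 6 control and 24.7 at day 8. Cxcr4, a chemokine receptor of migrating muscle precursors, rose from 0.390 to 18.999 FPKM and Fgfr4, listed at 0 at day 0, stood at 15.1. Ncam1, an adhesion molecule of myotubes and satellite cells, rose from 24.3 to 272 FPKM. Cd34 fell from 17.5 to 1.59 FPKM, yet stood at 27.8 in the second day 6 control and 7.22 at day 8, and Ly6a (Sca-1) fell from 15.5 to 2.54 with 31.3 and 13.9 there. For both genes the second day 6 control lay above day 0, so the fall held for the main day 6 column and not for its counterpart.

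**Figure D2:**
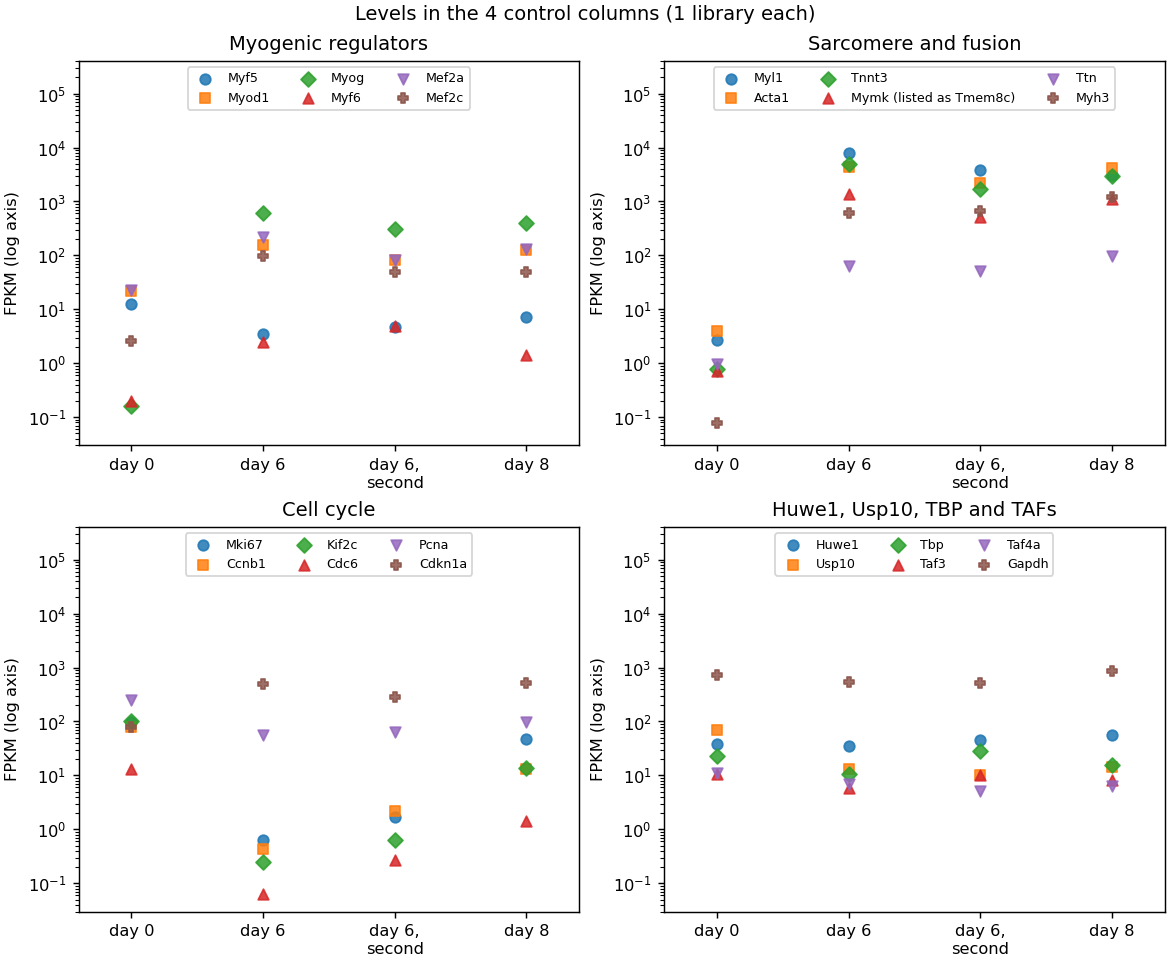
FPKM (log axis) of 6 genes a panel in the 4 control columns, 1 library each: day 0, day 6, the second day 6 control and day 8. Myog and the sarcomere genes stand far above day 0 in all 3 later columns, the cell cycle genes other than Cdkn1a are lowest at day 6, and Huwe1 lies between 35.1 and 55.4 FPKM.

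Nearly all measured contractile genes rose. All 24 measured thick filament and M-band genes rose at least 8-fold, as did 17 of 19 thin filament genes and 21 of 28 Z-disc and titin scaffold genes, where 27 rose at least 2-fold. Over all genes 7.45% rose at least 8-fold. Many of these members were under 1 FPKM at day 0 and entered only through day 6, so their rise was nearly fixed by the 1 FPKM limit. With 1 FPKM required on both days, 5 thick filament, 6 thin filament and 13 Z-disc genes rose at least 2-fold. The median log2 ratios were 11.42, 9.63 and 5.25, and with levels under 0.1 FPKM raised to 0.1 they were 10.18, 9.65 and 5.26. The 76 genes of these lists made up 0.811% of summed FPKM at day 0 and 13.6% at day 6, with 7.29% in the second day 6 control and 8.72% at day 8. The second day 6 control was lower than the first for 21 of 24 thick filament genes and 17 of 19 thin filament genes (median difference -1.28 and -1.09), so the size of these rises differed between the day 6 columns while both lay far above day 0.

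Myosin light chains were the most abundant mRNAs of day 6. Myl1, the fast essential light chain, stood at 2.66 FPKM at day 0 and 7977 at day 6, with 3769 in the second day 6 control and 3048 at day 8. Mylpf, the fast regulatory light chain, stood at 4.48, 5865, 2857 and 4641 FPKM in the same order. Both were the top 2 genes of the day 6 column. The embryonic and atrial light chain Myl4 rose from 0.924 to 979 FPKM, and the slow chain Myl2, listed at 0 at day 0, stood at 346 at day 6 and 37.8 at day 8.

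The sarcomeric heavy chains were nearly silent at day 0. Embryonic Myh3 was at 0.0795 FPKM at day 0, 616 at day 6, 676 in the second day 6 control and 1218 at day 8. Perinatal Myh8 is listed at 0 at day 0 and stood at 507, 152 and 96.6 FPKM in the later columns, and adult fast Myh1 was at 0.00719 and then 2029, 235 and 918. The later columns thus put different chains first, Myh1 at day 6 and Myh3 in the other 2. Slow Myh7 stood at 122 FPKM at day 6 against 0.00715 at day 0. These genes are near copies of each other and 6 of them lie side by side on chromosome 11 from 67078300 to 67371502 (mm10), in the order Myh3, Myh2, Myh1, Myh4, Myh8 and Myh13, so reads could be shared between them and the split is uncertain. At day 0 only Myh3 and Myh1 of the cluster were above 0, and at day 6 all 6 passed 1 FPKM, Myh13 being lowest at 1.11.

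Mybph, which encodes the myosin-binding protein H, had the largest ratio among genes that reached 0.1 FPKM on both days, going from 0.129 FPKM (about 6.5 fragments) to 1973, with 1001 and 1176 in the second day 6 and day 8 controls (log2 ratio 13.87). Myom2 of the M-band rose from 0.810 to 936 FPKM, and Myom1, at 0.0899 at day 0, stood at 187. Non-sarcomeric partners moved less: Mylk2, the skeletal light chain kinase, rose from 1.57 to 28.4 FPKM, the smallest ratio of the list (4.24).

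Of the thin filament genes, only Tpm1 and Tpm3 did not pass 2-fold. Skeletal actin Acta1 stood at 3.93 FPKM at day 0 and 4282 at day 6, with 2164 and 4170 in the second day 6 and day 8 controls (log2 ratio 10.16). Cardiac actin Actc1, the actin of embryonic muscle, stood at 0.212, 1266, 544 and 1793 FPKM. All 3 troponin T genes rose: Tnnt3 of fast fibers from 0.792 to 5026 FPKM, Tnnt1 of slow fibers from 2.58 to 1844 and Tnnt2 of embryonic fibers from 183 to 1623. Slow and fast troponin I and C genes rose side by side, with Tnni1 at 1558 and Tnni2 at 2002 FPKM at day 6, and Tnnc1 at 4659 and Tnnc2 at 2015. Neb, which encodes the thin filament ruler nebulin, was at 0.0450 FPKM at day 0 and 397 at day 6. Tpm1 and Tpm3, which also have non-muscle transcripts, were already high at day 0 (1673 and 370.0 FPKM) and changed less than 2-fold (log2 ratios 0.50 and 0.16), while Tpm2 rose from 138 to 2925.

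At the Z-disc, Actn2 (sarcomeric alpha-actinin) rose from 0.120 to 278 FPKM, and Myoz2, whose protein binds calcineurin there, stood at 0.0441 and 144. Several members were expressed before differentiation: Ankrd1 stood at 918 FPKM at day 0 and 4645 at day 6, Des at 345 and 1769, and the small heat shock gene Cryab at 306 and 819. Actn3, the fast-fiber actinin, was at 36.1 FPKM at day 0 and 1092 at day 6. Pdlim7 was the 1 member that did not pass 2-fold (71.6 and 67.2 FPKM). Xirp2 was given no ratio, since its day 6 row failed with a listed level of 0, and it stood at 166 FPKM in the second day 6 control.

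The genes with the largest rises among the searched genes with a CAGCTG in the 150 bases before the start are shown with that word in capitals. All are in GRCm38 (RefSeq) and written 5′ to 3′ on the gene's strand: Mybph at chr1:134193298-134193447 (plus), Atp2a1 at chr7:126463074-126463223 (minus), Mylpf at chr7:127211458-127211607 (plus) and Klhl41 at chr2:69669970-69670119 (plus).
Mybph: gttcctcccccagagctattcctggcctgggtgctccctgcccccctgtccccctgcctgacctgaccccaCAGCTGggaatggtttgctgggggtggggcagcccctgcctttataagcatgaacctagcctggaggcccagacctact
Atp2a1: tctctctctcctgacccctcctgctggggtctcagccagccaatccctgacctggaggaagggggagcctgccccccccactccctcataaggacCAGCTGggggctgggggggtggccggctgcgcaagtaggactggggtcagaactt
Mylpf: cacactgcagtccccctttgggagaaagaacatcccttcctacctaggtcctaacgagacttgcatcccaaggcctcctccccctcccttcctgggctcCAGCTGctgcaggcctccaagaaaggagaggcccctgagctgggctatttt
Klhl41: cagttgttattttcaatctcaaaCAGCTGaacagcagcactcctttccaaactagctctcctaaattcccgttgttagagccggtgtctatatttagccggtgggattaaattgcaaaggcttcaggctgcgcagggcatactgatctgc
The 4 windows were chosen for their ratio and for the word. The genes searched had reached 10 FPKM on either day and 0.1 on both, with a locus of at least 500 bases. Not every chromosome was searched, so genes outside these limits could have risen more. Klhl41, which stabilizes nebulin, rose from 0.645 to 494 FPKM and stood at 356 and 382 in the second day 6 and day 8 controls.

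**Figure D3:**
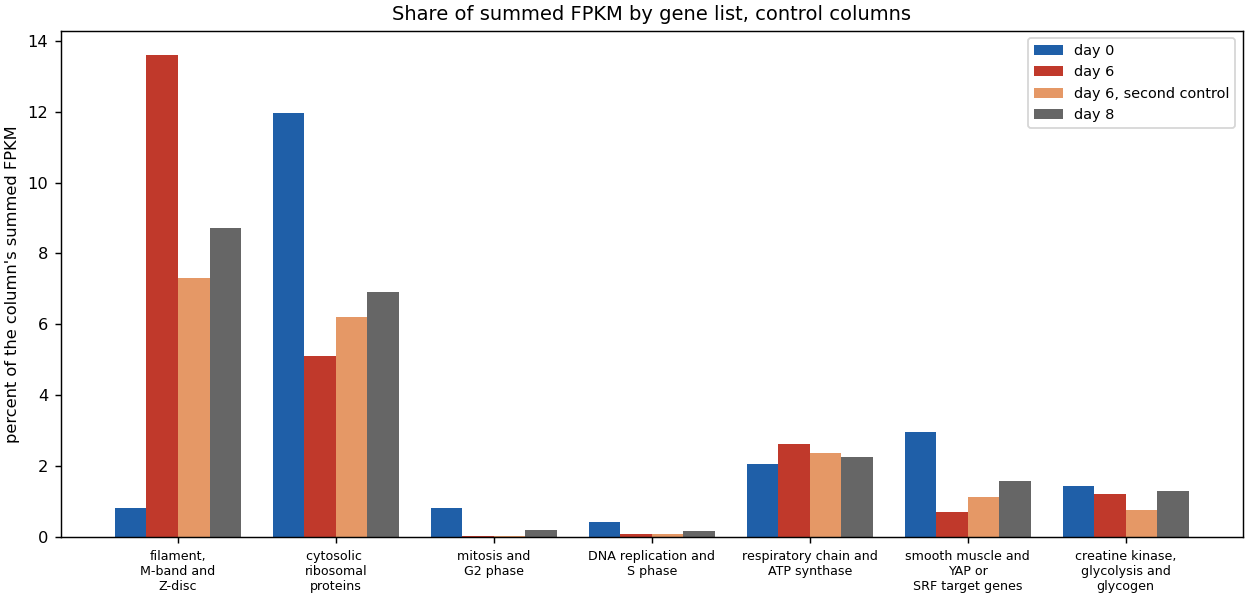
Percent of each column's summed FPKM (y axis, from 0) taken by 7 gene lists in the 4 control columns, 1 library each. Filament, M-band and Z-disc genes go from 0.811% at day 0 to 13.6% at day 6, and ribosomal protein genes from 11.97% to 5.09%.

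Genes of the triad, where depolarization is turned into calcium release, rose in 26 of 27 measured cases (median 6.17), and Asph, which is also broadly expressed, was the exception (51.9 and 30.8 FPKM). With 1 FPKM required on both days 12 rose, since the other rising members were under 1 at day 0 and entered only through day 6. The calcium release channel Ryr1 rose from 0.626 to 133 FPKM and stood at 67.2 and 84.1 in the second day 6 and day 8 controls. The voltage sensor Cacna1s is listed at 0 at day 0 and stood at 147 at day 6. The fast calcium pump Atp2a1 (SERCA1) rose from 0.310 to 530.2 FPKM, with 86.1 in the second day 6 control and 318 at day 8, and the broader pump Atp2a2 from 113 to 849. Casq1, Hrc and Trdn of the sarcoplasmic reticulum were at 0.0250, 0.0376 and 0.0388 FPKM at day 0 and at 415, 302 and 84.0 at day 6. Pvalb, the calcium buffer of fast fibers, is listed at 0 and then at 82.6.

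Of 11 acetylcholine receptor and postsynaptic genes, 9 rose and 0 fell (median 3.22). The fetal receptor subunit Chrng rose from 1.02 to 744 FPKM (184 and 426 in the second day 6 and day 8 controls), whereas the adult subunit Chrne stayed under 1 FPKM on both days (0 and 0.922). Chrna1 rose from 95.9 to 380.4 FPKM, Chrnd from 10.98 to 315 and Musk, the kinase that organizes the synapse, from 8.64 to 94.9. Agrn and Utrn did not pass 2-fold. In the dystrophin-glycoprotein complex, which ties the cytoskeleton to the matrix, 14 of 19 genes rose and 3 fell (median 2.67). Sgca rose from 1.74 to 85.6 FPKM, Dag1 from 44.5 to 286, and Dmd, listed at 0 at day 0, stood at 3.93. Sgce, Sntb2 and Dtnb, members with wider expression, fell, Sgce from 35.8 to 4.597 FPKM.

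Fusion genes moved both ways. Of 25, 10 rose and 7 fell (median -0.04, which was 0.65 on the housekeeping scale), beside 22.6% and 21.7% over all genes. The fusogens of muscle were among those that rose: Mymk (myomaker, listed as Tmem8c) stood at 0.721 FPKM at day 0 and 1399.7 at day 6, with 516 and 1124 in the second day 6 and day 8 controls, and Mymx (myomerger, listed as Gm7325) at 0.0691, 30.3, 14.3 and 47.2. The membrane repair genes Dysf and Trim72 rose as well, Dysf from 0.914 to 82.3 FPKM, while Trim72 stood at 0.0184 and 162. Cdh2, an adhesion molecule of fusing cells, rose from 31.4 to 164 FPKM. Those that fell included Rac activators, an adhesion gene and annexins: Dock1 from 13.3 to 2.06 FPKM, Dock5 from 13.8 to 1.02, Kirrel from 27.7 to 4.97 and the annexins Anxa1 from 743 to 109.8 and Anxa5 from 190.3 to 27.9. Itgb1 and Jam3 were within 1.5-fold of their day 0 level.

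Most muscle isoforms took a larger share beside their broadly expressed counterparts. In 30 pairs of a broadly expressed gene and its muscle counterpart, the muscle form was the more abundant in 4 pairs at day 0 and in 21 at day 6, with 17 in the second day 6 control and 16 at day 8. Its share of the pair was higher at day 6 than at day 0 in 29 pairs, Ldha being the exception, and it was higher than at day 0 in 26 pairs in the second day 6 control and 27 at day 8. In the second control the shares of Eno3 (68.7% at day 0 and 63.4%), Phkg1 (17.2% and 13.9%) and Cpt1b (12.1% and 0.176%) were lower too. The muscle form rose at least 2-fold in 24 pairs and the broad form fell in 17, beside 22.6% risen and 21.7% fallen over all genes. Many of these muscle forms, Ckm and Pygm among them, were under 1 FPKM at day 0 and passed that limit only at day 6. For such genes a rise was nearly fixed. Pygm, the muscle glycogen phosphorylase, went from 0.0951 to 201 FPKM while brain-type Pygb went from 24.3 to 3.82, so its share went from 0.390% to 98.1%. Pgam2 rose from 0.775 to 254 FPKM and Pgam1 fell from 437 to 46.3. Among fatty acid binding proteins, Fabp3 rose from 1.34 to 225 FPKM and Fabp5 fell from 351 to 3.86. Among actins, Acta1 rose as given above and Actb fell from 2180 to 226, so that Acta1 made up 0.180% of the pair at day 0 and 95.0% at day 6. Eef1a2 and Rpl3l, which replace their partners in mature muscle, made up no more than 0.128% of their pairs at day 6, and Slc2a4, the insulin-responsive glucose transporter, 14.0%.

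**Figure D4:**
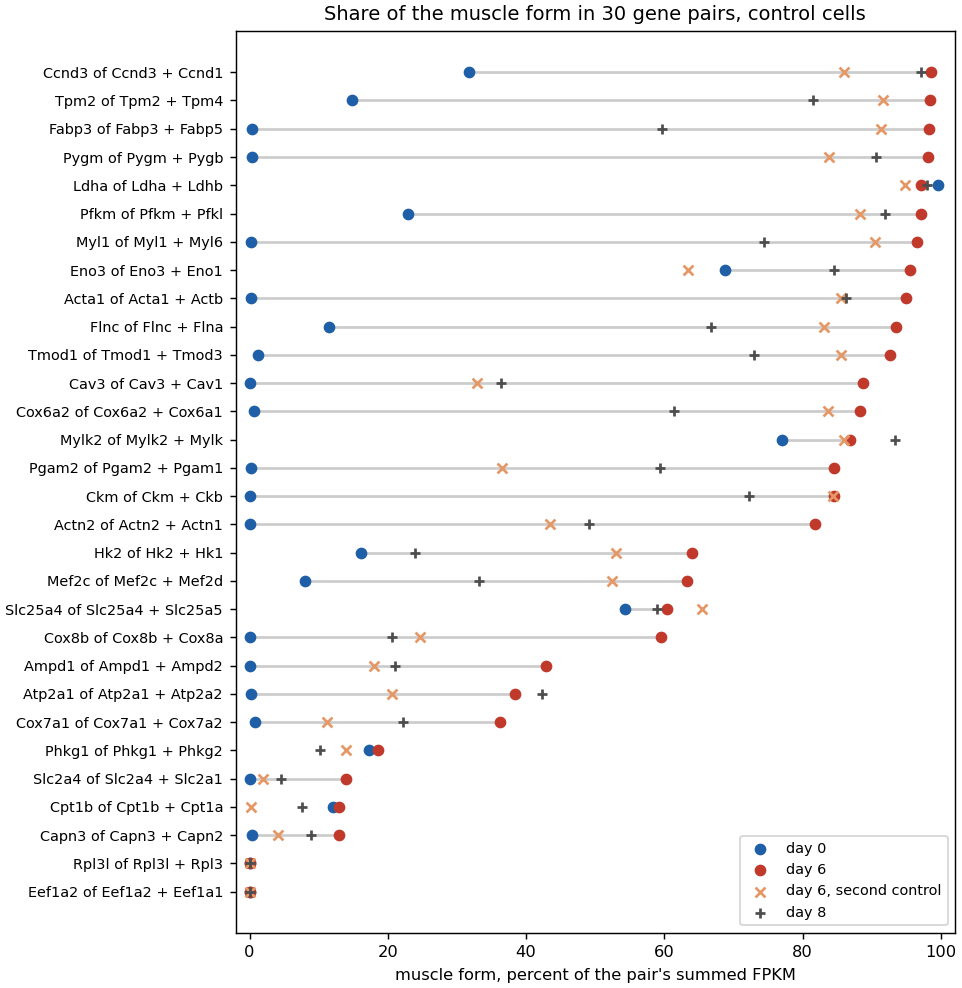
Muscle form as a percent of the summed FPKM of each of 30 gene pairs (x axis), at day 0, day 6, the second day 6 control and day 8, 1 library each. In 29 pairs the day 6 point lies to the right of day 0, and Ldha of Ldha and Ldhb moves the other way, from 99.5% to 97.2%.

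Of 34 genes of creatine kinase, glycolysis and glycogen, 14 rose and 11 fell (median 0.76), beside 22.6% and 21.7% over all genes. Ckm, the muscle creatine kinase, is listed at 0 at day 0 and stood at 219 FPKM at day 6, 78.1 in the second day 6 control and 306 at day 8, whereas the brain form Ckb was at 27.0 and 39.99. Pfkm, the muscle phosphofructokinase, rose from 13.9 to 362 FPKM as Pfkl and Pfkp fell. Pkm fell from 3053 to 550.3 FPKM, Eno1 from 256 to 44.5 and Ldha from 661 to 199.9, and the second day 6 control had 592, 60.1 and 141. Aldoa, the aldolase of muscle, rose from 452 to 1306 FPKM, with 659 in the second day 6 control and 780.3 at day 8. Gapdh, often used as a loading control, was at 717 and 547 FPKM, with 511 and 845 in the other columns (log2 ratio -0.32, which was 0.36 on the housekeeping scale).

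Most genes of the respiratory chain stayed within 2-fold. Of its 55 measured genes, 11 rose and 1, Cyc1, fell (0.25 with the day 8 control), and the median was 0.47 (0.28 in the second day 6 control and 0.23 at day 8). Over all genes 22.6% rose and 21.7% fell. The largest rises were those of the muscle isoforms Cox6a2, from 0.460 to 379 FPKM, and Cox7a1, from 0.515 to 27.7, and Cox8b is listed at 0 at day 0 with 134 at day 6. Of the core subunits, Ndufv1 rose from 74.1 to 189 FPKM and Sdha from 91.6 to 185, and Atp5b was at 733 and 875. On the housekeeping scale, 31 of the 55 passed 2-fold. Among lipid and mitochondrial regulators, 10 of 23 rose and 1 fell. Myoglobin (Mb) is listed at 0 at day 0 and stood at 1097, 199 and 644 FPKM in the later columns, while Tfam, Esrra and Cpt1a did not pass 2-fold.

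Cell cycle genes fell almost without exception. All 57 mitosis and G2 genes fell, 56 of them at least 8-fold (background 6.1%), with a median log2 ratio of -6.32. Of 51 replication and S phase genes 47 fell, 32 at least 8-fold, with a median of -3.21, and none rose. Members under 1 FPKM at day 6 entered only through day 0, so their fall was nearly fixed by the limit. With 1 FPKM required on both days, 22 mitosis and 34 S phase genes fell. Mitosis genes made up 0.820% of summed FPKM at day 0 and 0.0217% at day 6, with 0.0405% in the second day 6 control and 0.192% at day 8.

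Kif2c, a microtubule depolymerase of the spindle, had the largest fall among genes that reached 0.1 FPKM on both days, from 104 FPKM to 0.243, about 21.1 fragments (log2 ratio -8.61), with 0.623 in the second day 6 control and 13.9 at day 8. The proliferation marker Mki67 stood at 96.1, 0.629, 1.73 and 46.7 FPKM in the same order. Cyclin B1 (Ccnb1) stood at 78.9, 0.432, 2.21 and 12.9 FPKM. In all of these the day 6 controls were lowest and day 8 lay between them and day 0. Of the 57 genes, 56 were higher in the second day 6 control than in the first, by a median of 1.34, and the list's median against day 0 was -5.06 there and -2.13 at day 8. The checkpoint kinase gene Bub1b fell from 115 to 0.404 FPKM, the APC activator Cdc20 from 109 to 0.443 and the kinase Plk1 from 65.9 to 0.411. Smc4, a condensin subunit, fell least, from 176 to 30.4 FPKM.

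The replication genes that fell included licensing factors, helicase subunits and a methylation factor. Cdc6, which loads the replicative helicase, stood at 12.9 FPKM at day 0, 0.0633 at day 6, 0.270 in the second day 6 control and 1.44 at day 8. The helicase subunit Mcm5 fell from 48.3 to 0.615 FPKM, Gins2 from 30.2 to 0.255 and Uhrf1, which guides maintenance methylation, from 59.6 to 0.217. Pcna, the polymerase clamp, kept 55.5 of 245 FPKM and Rrm2, a ribonucleotide reductase subunit, 30.04 of 147. Gins4, Pold2, Orc6 and E2f2 did not pass 2-fold, and E2f2 was the 1 member that was higher at day 6 (8.66 and 15.1 FPKM, but 1.42 in the second day 6 control).

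Promoters of 4 genes that fell at least 8-fold, chosen for holding both CCAAT and a CHR word (TTTGAA or TTTAAA), are shown with these words in capitals, searched on both strands. The windows are Cdc20 at chr4:118437344-118437493 (minus), Ccnb1 at chr13:100786487-100786636 (minus), Depdc1a at chr3:159495283-159495432 (plus) and Plk1 at chr7:122159285-122159434 (plus), in GRCm38 (RefSeq) and 5′ to 3′ on the gene's strand.
Cdc20: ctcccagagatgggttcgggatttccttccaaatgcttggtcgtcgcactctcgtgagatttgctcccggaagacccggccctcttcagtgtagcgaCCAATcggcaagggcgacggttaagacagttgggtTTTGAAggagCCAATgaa
Ccnb1: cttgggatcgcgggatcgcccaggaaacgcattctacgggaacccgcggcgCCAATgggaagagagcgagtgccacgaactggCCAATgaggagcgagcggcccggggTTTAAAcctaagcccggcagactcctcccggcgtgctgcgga
Depdc1a: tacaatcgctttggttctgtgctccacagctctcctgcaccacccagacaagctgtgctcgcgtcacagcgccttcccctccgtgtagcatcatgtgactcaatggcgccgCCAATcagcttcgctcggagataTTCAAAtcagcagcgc
Plk1: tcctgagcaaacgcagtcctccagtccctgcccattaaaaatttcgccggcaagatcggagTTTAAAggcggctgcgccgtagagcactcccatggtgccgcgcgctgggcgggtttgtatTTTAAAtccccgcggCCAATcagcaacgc
These 4 had the largest falls among the searched genes with both words in the last 150 bases. The search took genes that reached 10 FPKM on either day and 0.1 on both, with a locus of at least 500 bases. It did not cover every chromosome, so genes outside these limits could have fallen more. TTCAAA in Depdc1a is TTTGAA read on the other strand. Over 250 bases, CCAAT stood in 33 of 47 mitosis promoters (70.2%) and 21 of 34 S phase promoters (61.8%). It stood in 47.6% of the 414 genes that fell at least 8-fold and 37.7% of all compared. A CHR word stood in 42.6% of the mitosis promoters, 17.6% of the S phase promoters and 16.5% of all compared. It was more common in all 22862 promoters with 1 start (26.0%), near the 25.4% of genes that fell at least 8-fold. Both words together stood in 38.3% of the mitosis promoters, 11.8% of the S phase promoters, 6.30% of all compared and 9.14% of all 22862. The E2F words TTTGGCGC and TTTCGCGC stood in 14.7% of 34 S phase promoters, 6.38% of the mitosis promoters and 1.49% of all compared.

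Genes that hold the cycle in check moved both ways. Of 20 CDK inhibitor, Rb family, D cyclin and E2F genes, 6 rose and 8 fell, beside 22.6% and 21.7% over all genes. Cdkn1a (p21), the inhibitor induced on myoblast exit from the cycle, stood at 77.8 FPKM at day 0, 491 at day 6, 286 in the second day 6 control and 522 at day 8. Cdkn1c (p57) rose from 0.197 to 8.56 FPKM and stood at 67.7 at day 8. Among the pocket proteins, Rb1 rose from 13.2 to 49.2 FPKM and Rbl2 from 9.08 to 47.2 as Rbl1, itself high in dividing cells, fell from 37.5 to 2.95. D cyclins parted in the same way: Ccnd1 fell from 88.4 to 1.025 FPKM and Ccnd2 from 29.5 to 1.69, whereas Ccnd3, the D cyclin of myotubes, was at 41.2 and 67.9.

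Genes of the non-muscle cytoskeleton were among those that fell. Of 32 smooth muscle and YAP or SRF target genes, 20 fell and 3 rose (median -1.51, and -0.82 on the housekeeping scale), and their share of summed FPKM went from 2.95% to 0.712%. Vim, the intermediate filament of myoblasts, stood at 5150.2 FPKM at day 0, 294 at day 6, 766 in the second day 6 control and 1116 at day 8. Actg1 fell from 2159 to 171 FPKM, Tpm4 from 792 to 47.0 and the filamin Flna from 219.5 to 23.5 as its muscle counterpart Flnc rose from 28.4 to 339. Acta2 rose from 419 to 906 FPKM, and Vcl and Cnn3 did not pass 2-fold.

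Matrix genes depended on which day 6 control was read. Of 19 collagens 9 fell and 6 rose, and of 26 other matrix genes 11 fell and 5 rose, beside 21.7% and 22.6% over all genes. The fibrillar collagens fell at day 6, Col1a1 from 144 to 4.61 FPKM and Col1a2 from 653 to 42.1, and stood at 57.5 and 121 in the second day 6 control. All 26 other matrix genes were higher in the second day 6 control than in the first, by a median of 1.83, which turned their median against day 0 from -0.61 (0.07 on the housekeeping scale) to 0.99. Fn1 was at 534, 405 and 1812 FPKM at day 0, day 6 and in the second control, and Bgn at 368, 194 and 2089. For Fn1 and Bgn the columns of 1 day differ by more than the days do. Ogn, which encodes osteoglycin, rose in every later column, from 18.5 FPKM to 281, 1137 and 335. Col25a1, a transmembrane collagen of myotubes, stood at 0.00639 FPKM at day 0 and 11.2 at day 6. Of 13 metalloproteinases and inhibitors 8 rose and 3 fell, with Mmp2 at 8.15 and 26.1 FPKM and 359 in the second control, and Timp1 falling from 227 to 21.5.

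Both IGF ligands rose, and the binding proteins moved both ways. Igf2 stood at 0.0719 FPKM at day 0 and 613 at day 6, with 249 and 452 in the second day 6 and day 8 controls, and its neighbour H19 rose from 32.9 to 2957 (2764 and 3334 there). Both lie in the imprinted part of chromosome 7, H19 from 142575532 to 142578146 and Igf2 from 142650768 to 142670356 (mm10). Tnni2, from 142442468, and Tnnt3, in a listed locus that begins at 142460812 and is shared with Lsp1, stand close by, while Lsp1 and Mrpl23 did not pass 2-fold (log2 ratios 0.73 and 0.63). Igfbp2 fell from 547 to 3.20 FPKM, and Igfbp5, which is made by differentiating myoblasts, rose from 156 to 1074. Igf1 rose from 0.221 to 9.44 FPKM and the clearance receptor Igf2r from 5.04 to 61.7, while Igf1r stayed at 4.16 and 4.76. Of 13 measured imprinted genes 9 rose and 2, Peg10 and Sgce, fell. The Dlk1 and Meg3 genes of chromosome 12 were nearly silent, with Dlk1 listed at 0 on both days and Meg3 at 0.00373 and 0.00271 FPKM.

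Among myostatin, activin, TGF-beta and BMP genes, 8 of 27 rose and 6 fell (median 0.35), beside 22.6% and 21.7% over all genes. Fst, the follistatin that binds myostatin and activin, rose from 0.784 to 45.8 FPKM, Tgfb3 from 12.004 to 82.0 and Bmp4, at 0.0935 at day 0, stood at 4.56. The activin subunit Inhba fell from 22.8 to 1.98 FPKM. Of 14 Notch genes, Dll1 and Heyl rose, Dll1 from 0.143 to 15.4 FPKM and Heyl from 0.116 to 5.89. Lfng fell from 3.86 to 0.117, and 11, among them Notch1 and Rbpj, passed neither limit.

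Of 26 growth factor receptors, ligands and feedback genes, 7 rose and 11 fell, beside 22.6% and 21.7% over all genes. Met, the receptor of HGF, fell from 71.8 to 10.2 FPKM, and the EGF family ligands Areg, Ereg and Hbegf fell, Areg from 21.4 to 0.734. The ERK-dependent genes Dusp6, Dusp4 and Etv4 fell too, Etv4 from 11.5 to 0.0143. Fgf21, a stress-induced hormone, stood at 0.281 FPKM at day 0, about 5.0 fragments, and at 438, 298 and 135 in the later columns. Erbb3 rose from 0.395 to 27.5 FPKM. Of 16 immediate early and MYC genes 7 fell and 4 rose: Fosl1 fell from 18.9 to 0.101 FPKM, Junb rose from 15.3 to 74.2 and Jun from 52.0 to 119.8, and Myc, at 38.0 and 21.4, did not pass 2-fold.

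Ubiquitin ligases of muscle rose in 12 of 22 cases and fell in 0 (median 1.51), beside 22.6% and 21.7% over all genes. Trim63 (MuRF1) and Fbxo40 are listed at 0 at day 0 and stood at 55.7 and 39.1 FPKM at day 6, and Fbxo32 (atrogin-1) rose from 4.11 to 14.7. Klhl31 rose from 0.180 to 32.4 FPKM and Asb5 from 177 to 777. Trim63, Fbxo40 and Klhl31 were under 1 FPKM at day 0 and entered only through day 6, so their rise was nearly fixed. Most of the proteasome stayed within 2-fold: 34 of 36 subunits passed neither limit, Psma1 (0.045 with the day 8 control) and the immunoproteasome subunit Psmb10 fell, and the median was 0.07 (0.75 on the housekeeping scale, where 12 rose).

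The study asked how Huwe1, a HECT-type ubiquitin ligase, and the deubiquitinase USP10 set the level of the TATA-binding protein during this differentiation. At the mRNA level Huwe1, on chromosome X from 151803282 to 151935417 (mm10), was at 38.3 FPKM at day 0, 35.1 at day 6, 44.7 in the second day 6 control and 55.4 at day 8 (log2 ratio -0.05, and 0.63 on the housekeeping scale). It passed neither limit in any later column. Usp10, on chromosome 8 from 119910852 to 119957557, was at 68.5 FPKM at day 0 and at 13.2, 10.3 and 14.5 in the later columns, a 4.93-fold fall at day 6 (log2 ratio -2.30). The 3 later columns of Usp10 lie close together and far below day 0. Of the 9 measured genes of this list, which adds the G3bp partners of USP10, the Huwe1 substrates Mcl1 and Trp53 and ubiquitin-conjugating enzymes, 2 fell, Usp10 and Trp53 (72.2 to 18.9 FPKM).

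Tbp, on chromosome 17 from 15499888 to 15517427, was at 22.7 FPKM at day 0 and 10.8 at day 6, 2.01-fold lower, but at 27.8 in the second day 6 control and 15.9 at day 8. The log2 ratio of Tbp was -1.004 at day 6, just past the 2-fold limit, and 0.43 with the second day 6 control, so the direction differed between the day 6 columns. The other TFIID genes moved little. Of 43 genes of TFIID and RNA polymerase II initiation 6 fell and 2 rose, and 35 passed neither limit (median -0.25, and 0.43 on the housekeeping scale, where 0 fell and 6 rose). Taf3 was at 10.8 and 5.91 FPKM (log2 ratio -0.80) and Taf4a at 11.1 and 6.93 (-0.61, and 0.07 on the housekeeping scale), neither past 2-fold. Taf5 fell from 5.30 to 2.21 FPKM and Taf7 rose from 1.07 to 5.49. Polr2a, the largest polymerase subunit, fell from 204 to 74.9 FPKM yet stood at 383 and 242 in the second day 6 and day 8 controls. The TBP paralog Tbpl2 is listed at 0 in all 4 columns, and Tbpl1 was at 20.3 and 21.9 FPKM.

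In the translation machinery more genes fell than rose, but this depended on the scale. Of 42 cytosolic ribosomal protein genes 13 fell and 1, the muscle-specific Rpl3l, rose, with a median of -0.77 (-0.46 in the second day 6 control, -0.60 at day 8 and -0.09 on the housekeeping scale). On the housekeeping scale 4 fell and 1 rose. Rpl3l is listed at 0 at day 0 and stood at 1.09 FPKM at day 6, just past the 1 FPKM limit. It stood under that limit in the second day 6 control (0.280) and at day 8 (0.423). Over all genes 21.7% fell by the main rule. The share of the 42 ribosomal protein genes in summed FPKM went from 11.97% to 5.09%, and Rplp1, the most abundant mRNA of day 0, went from 23653 to 2947 FPKM. Ribosomal protein genes have many processed copies in the genome, so their levels are uncertain. Of 34 ribosome biogenesis genes 11 fell and 2 rose (median -0.60, but 0.09 on the housekeeping scale, where 1 fell and 4 rose). Nucleophosmin (Npm1) fell from 3534 to 497 FPKM and nucleolin (Ncl) from 434 to 153.

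The remaining lists moved little or unevenly. Over all genes 22.6% rose and 21.7% fell. Cholesterol and fatty acid synthesis had 4 rising and 6 falling genes of 28, with Fasn falling from 57.0 to 14.7 FPKM and Scd1 rising from 119.9 to 322. Of 15 interferon-stimulated genes 7 fell and 2 rose, and of 14 chemokines and cytokines 7 fell and 3 rose. The second day 6 control was higher than the first for 12 of the 15 and 11 of the 14, and with it the medians against day 0 went from -0.90 to -0.05 and from -0.87 to 0.74. Ccl2 fell from 14.3 to 0.809 FPKM and Csf1 from 47.9 to 8.24, though Csf1 stood at 113 in the second day 6 control. Of 19 p53 target genes 6 rose and 0 fell (median 0.55), with Gadd45a going from 26.4 to 1331 FPKM, and Mdm2, which targets p53 for degradation, at 65.5 and 67.3.

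Over all genes other than short RNA genes, 206 were under 1 FPKM at day 0 and at least 10 at day 6, and 55 of these reached 100, whereas 188 were under 1 FPKM at day 6 and at least 10 at day 0, of which 6 had been at 100 or more. Rises from near silence thus reached higher levels than falls to near silence had left. Of 875 genes at 100 FPKM or more at day 0, 318 fell and 57 rose, beside 21.7% and 22.6% over all genes. These genes were chosen on their day 0 level, the denominator of the ratio, and that choice alone favours falls. Besides the genes given above, the largest falls included Nefm, a neurofilament gene, from 55.0 to 0.131 FPKM, Plaur, the urokinase receptor, from 39.2 to 0.179, and Syt13 from 40.6 to 0.197. Among genes listed at 0 at day 6, Prl2c3, a proliferin, had 811 FPKM at day 0 and stood at 0.00122 and 0 in the second day 6 and day 8 controls. Its near copies Prl2c2, Prl2c4 and Prl2c5 had 69.9, 5.62 and 3.24 FPKM at day 0 and are also listed at 0 at day 6, with 0.399, 1.85 and 0.477 in the second day 6 control. The split between them is uncertain. Sprr1a went from 87.9 FPKM to a listed 0.

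**Figure D5:**
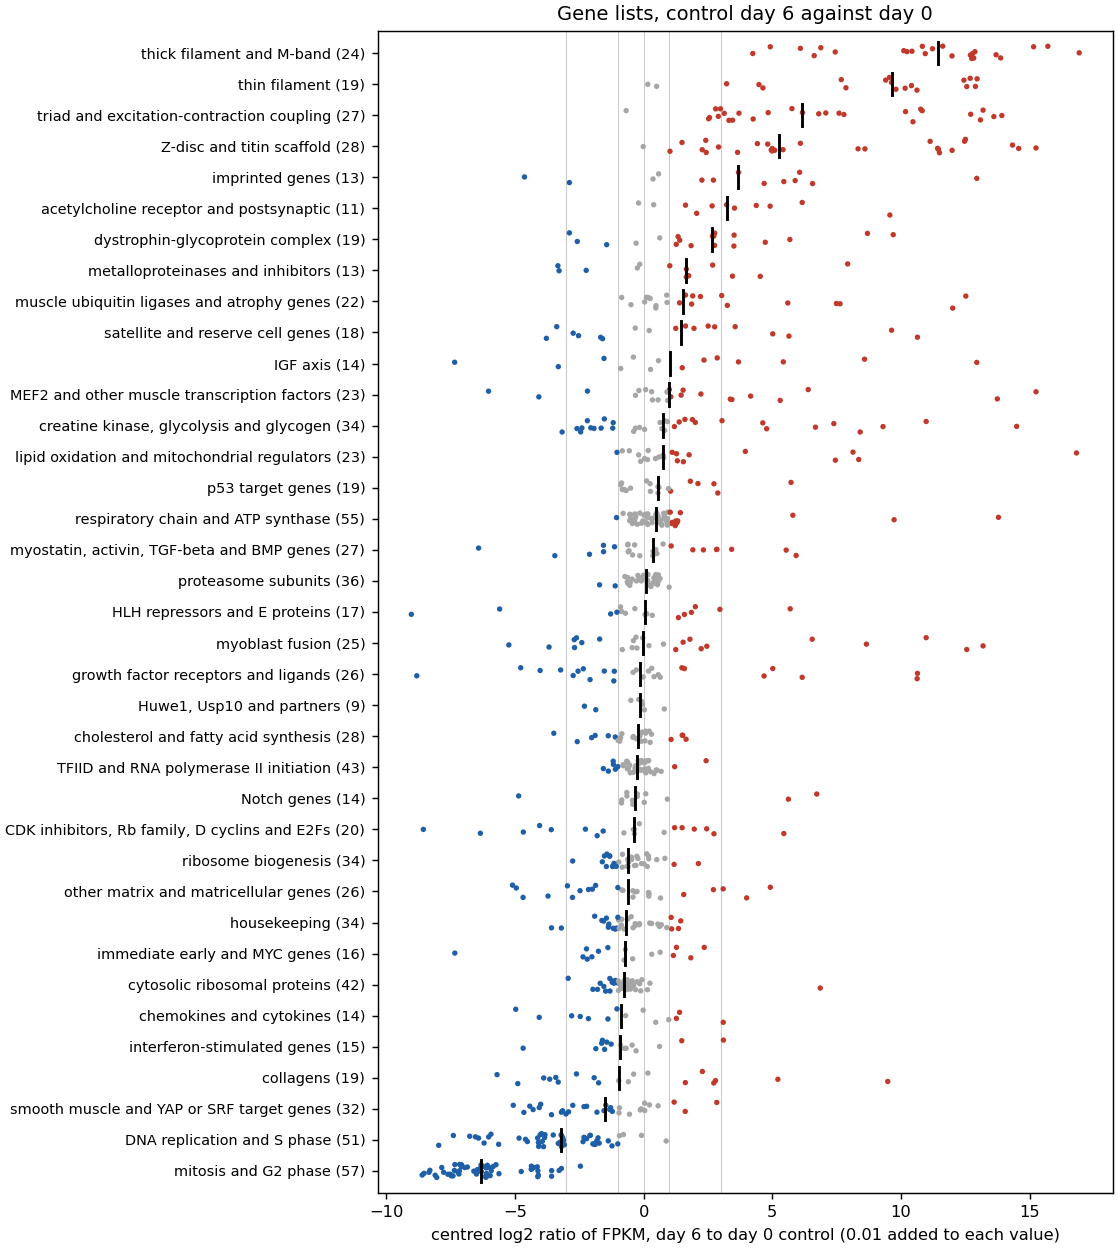
Centred log2 ratio of FPKM, day 6 to day 0 control (x axis), for each measured member of the gene lists (points, red where at least 2-fold higher and blue where at least 2-fold lower) with the list median as a black bar and the number measured in brackets. Thick filament genes have a median of 11.42 and mitosis genes one of -6.32, and the proteasome list stays within 2-fold apart from 2 genes.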

How the data were processed

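Per the labels and the methods of the study, total RNA was poly(A)-selected, made into strand-marked libraries and sequenced, and reads were aligned to mm10 with Tophat (Bowtie2 in the submitters' processing notes). The authors deposited FPKM values from Cuffdiff, normalized within each of 4 tables, and pooled 2 knockdown libraries in 1 column where there were 2. Tool versions and the annotation are not given in the sources used here. The control columns of all 4 tables were used, while 4 value columns of treated cells and the columns of the authors' own comparisons (log2 fold change, test statistic, p, q and a significance mark) were not.

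Tables were joined on the gene identifier. A pseudocount of 0.01 was added, and the tables' scales were set to each other by the median ratio alone. Calls are fold limits with no test, since each day has 1 control library, and intervals over replicates cannot be given. The members and the 45 gene lists, 7 of them marker lists, were chosen with earlier results of these data known. Genes named as examples were the members of a list with the largest ratio, the highest level or the ratio nearest 0, genes named in the study, and, among 7118 genes that reached 10 FPKM on either day and 0.1 on both, the 15 largest rises and falls. Some examples were chosen after their values were seen. Of the 10 largest rises and falls in FPKM, 2 and 1 were short RNA genes and are not described. Mycl1 and Ube2d2 of the lists matched no row. Promoters are those of the RefSeq table for GRCm38.p6, for genes with 1 listed start. The scripts were tested on simulated data. Python 3.11.15, pandas 2.3.3, numpy 2.4.6 and matplotlib 3.10.9 were used.

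Some items are not reported here.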

Additional observations from a re-analysis of the deposited data

How the results depend on the processing

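Fold counts moved by more than 1.5 times under these settings. A pseudocount of 1 gave 417 genes at least 8-fold higher and 348 lower. A limit of 5 FPKM in either column gave 550 at least 8-fold higher, and any level above 0 gave 4927 at least 2-fold and 1625 at least 8-fold higher. Requiring 1 FPKM on both days, which drops genes silent at day 0 or day 6, gave 1684 at least 2-fold higher, 191 at least 8-fold higher and 211 at least 8-fold lower, and left 5 thick filament, 6 thin filament, 13 Z-disc and 12 triad genes higher and 22 mitosis genes lower. Housekeeping centring gave 4683 higher and 1498 lower at 2-fold. With the second day 6 control 472 genes were at least 8-fold lower, and with day 8, 273. In the other cases the fold counts stayed within 1.5 times (36 of 48 comparisons). Ratios of 180 named genes moved by more than 0.56, the robust SD between the day 6 columns, with the second day 6 control. Another 92 stayed within it and 7 reversed, and with day 8 these were 185, 89 and 4. By the same limit 16 list medians moved and 23 did not, in either column. List counts moved by more than 1.5 times in 26 cases with the second day 6 control (64 did not) and 31 with day 8 (59 did not). Called directions of named genes reversed with the second day 6 control for Cd34 (0.81), Csf1 (1.38), Ly6a (1.15), Map2 (0.12), Nkx2-5 (0.80), Polr2a (1.05) and Tbp (0.43), and with day 8 for Cyc1 (0.25), Polr2a (0.27), Psma1 (0.045) and Stmn2 (1.18). The cause was not tested. Raising levels under 0.1 FPKM to 0.1 with no pseudocount was chosen after seeing the data and changed no such count by 1.5 times. No paired analysis was possible because each day has 1 control library, and no replicate could be left out. At the depth of day 0, genes listed at 0 at day 0 could hold up to 0.0699 FPKM (3 fragments) on 2000 bases.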

Other observations

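Calls were unevenly spread over chromosomes. Over all genes 22.6% rose and 21.7% fell. Of 376 compared genes on the X chromosome, 60 rose and 135 fell (median log2 ratio -0.42). Chromosomes 10 (91 of 566 rose and 158 fell) and 15 (81 of 474 rose and 131 fell) leaned the same way. On chromosome 8, 206 of 632 rose and 108 fell (median 0.40), and on chromosome 16, 107 of 370 rose and 56 fell (median 0.37). Chromosomes 6, 13 and 14 had medians of 0.26, 0.24 and 0.27. These chromosomes were named after their values were seen. Copy number was not measured on either day, and no cause was tested.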
